A study of Mus musculus with 3 samples.

Results

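The autophagy genes described here were 36 genes of the machinery that builds autophagosomes, measured among 55536 genes in RNA held on chromatin in mouse bone marrow-derived macrophages. They were taken by name, as the cargo receptors, the ATG8 family and the core initiation, lipid, conjugation and kinase genes, and all 36 were found in the gene tables by way of the symbols that the transcript tables carry. The cells were primary macrophages of strain C57BL/6J, with no genetic change given in the labels. There was 1 group of 3 libraries, named replicates 1, 2 and 3 as in the labels, which call them biological replicates. All of the cells had been exposed to 100 ng/ml Lipid A, which is the TLR4 ligand within lipopolysaccharide, for 12 h, then kept without it for 12 h, then exposed again to 100 ng/ml for 20 min. Sex and age were not collected, and all libraries carry the same donor entry. The libraries were made from total RNA of the chromatin fraction after removal of ribosomal RNA, from 1000, 250 and 500 ng of starting RNA in replicates 1, 2 and 3, so that replicate and amount cannot be told apart. Cells that had only 1 or neither of these exposures were not analysed here. With 1 group there was no comparison between treatments and no test, and the spread between libraries, which may be technical, is the only error.

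Autophagy delivers parts of the cytoplasm to lysosomes. The ULK kinase complex starts the process, a class III phosphoinositide 3-kinase complex built around Pik3c3 and Becn1 marks the membrane with a lipid, and Atg9a, the Atg2 proteins and the WIPI proteins bring in and place membrane. Atg7, Atg3, Atg10 and the Atg12, Atg5 and Atg16l1 proteins attach ATG8 proteins such as LC3 and GABARAP to that membrane, the ATG4 proteases trim and release them, and cargo receptors such as Sqstm1, known as p62, bind both the cargo and the ATG8 proteins. In macrophages the same machinery serves to destroy bacteria taken up by the cell and to limit inflammatory signalling, and transcription of Sqstm1 is known to rise after Toll-like receptor stimulation.

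RNA on chromatin is in large part RNA still being made or spliced, and the annotation holds transcripts, classed as retained intron, in which a piece of an intron stays joined to its exon. Much of the signal of these genes lay on such transcripts, so the exon-intron boundaries at which 5 of them leave the spliced form are shown. They belong to the most abundant retained-intron transcripts of Sqstm1, Uvrag, Becn1, Nbr1 and Atg16l1. The letters are those of the GENCODE M21 transcripts on mm10, 5′ to 3′ along the gene's strand. Capitals mark the last 20 bases of the coding exon, lower case the intron that follows, and in the Atg16l1 intron, which is shown whole, capitals also mark the first 20 bases of the next exon.
Sqstm1-207, chr11:50205963-50206042, minus strand: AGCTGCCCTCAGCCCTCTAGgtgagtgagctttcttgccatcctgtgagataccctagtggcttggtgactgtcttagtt
Uvrag-202, chr7:98979576-98979655, minus strand: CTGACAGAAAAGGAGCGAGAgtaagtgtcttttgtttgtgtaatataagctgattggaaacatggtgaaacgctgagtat
Becn1-210, chr11:101296198-101296277, minus strand: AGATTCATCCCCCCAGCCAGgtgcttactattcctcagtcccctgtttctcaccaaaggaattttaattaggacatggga
Nbr1-216, chr11:101576390-101576469, plus strand: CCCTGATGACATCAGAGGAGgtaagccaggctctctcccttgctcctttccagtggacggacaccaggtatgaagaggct
Atg16l1-204, intron at chr1:87785997-87786240, plus strand: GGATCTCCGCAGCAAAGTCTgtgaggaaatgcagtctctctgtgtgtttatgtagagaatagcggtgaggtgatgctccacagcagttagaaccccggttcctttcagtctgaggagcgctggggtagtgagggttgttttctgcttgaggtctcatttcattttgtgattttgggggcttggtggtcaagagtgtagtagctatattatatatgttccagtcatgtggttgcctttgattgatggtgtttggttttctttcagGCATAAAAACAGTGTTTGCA

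In each of these, the intron began with the letters gt that mark a splice donor. Sqstm1-207 ran 344 bases into an intron of 2988 bases, and Uvrag-202 ran 387 bases into one of 39666. By contrast, Becn1-210 held its intron of 633 bases whole, and Atg16l1-204 held the 244-base intron whole. Among all members, 24 had at least 1 annotated retained-intron transcript, 84 such transcripts in all, and 81 of these crossed the boundary of a coding exon. At 119 such boundaries, 62 of 64 donor sides began with gt and 55 of 55 acceptor sides ended with ag. In 14 of the genes, 31 introns were held whole, with a median length of 411 bases and a range of 56 to 2584.

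The libraries held 13953780, 24222661 and 16571228 expected counts in replicates 1, 2 and 3, of which 2.46, 0.484 and 0.327% fell on entries that are not genes. A gene at 0 counts could have had up to 3 counts, which is 0.220, 0.124 and 0.182 CPM (counts scaled to library size), by counting error alone. Levels are given in TPM, a share of transcripts within each library that is scaled for transcript length. All 9 macrophage markers, such as Adgre1 and Csf1r, were detected, between 33.9 and 334 TPM. Of 20 markers of other blood and stromal cells, 1 reached 1 TPM in every library (Zbtb46, 1.41 TPM), Cpa3, Cxcr2, Mcpt8, Ncr1 and S100a8 were among those at 0, and the 20 summed to 3.42, 2.57 and 2.90 TPM. A second transcript table of the same libraries, described further on, gave higher values: the sum was 33.6, 27.0 and 33.3 TPM, and 6 markers reached 1 TPM in every library (Cd3d, Cd8a, Col1a1, Cxcr2, Mpo and Zbtb46). The T cell marker Cd3d had a mean of 14.0 TPM there against 0.0200 in the first table, and the neutrophil marker Cxcr2 4.42 TPM against 0. The part of such cells in the results was not tested. TPM was lower in replicate 2 over genes at large: 70.7% of protein-coding genes averaging 50 or more counts were lowest there on the log2(TPM + 1) scale, against 33.9% on the log2 CPM scale.

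Nearly the whole list was detected. Of the 36 members, 35 had at least 1 TPM in each library, and 45.2% of all 22028 protein-coding genes did. The exception was Map1lc3a, which encodes one of the LC3 proteins. The members together took 0.188, 0.184 and 0.191% of the counts on genes in replicates 1, 2 and 3. Their median level was 15.6 TPM, and the list lay 3.31 above all protein-coding genes in median log2(TPM + 1), with 3.29 ± 0.11 (SD, n = 3) when taken library by library. Against protein-coding genes averaging 1 TPM or more, the same difference was 0.63. Among the 9949 detected protein-coding genes, whose median was 11.8 TPM, 22 members lay above the median and 9 lay above the third quartile of 28.6 TPM. In bulk RNA such as this, fewer cells expressing a gene and less RNA per cell cannot be told apart.

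The levels ran from 267 ± 118 TPM (SD, n = 3) for Sqstm1 to 0.737 ± 0.266 for Map1lc3a. Sqstm1 alone made up 24.8% of the summed level of the list, which was 1076 TPM. In the order of levels Atg16l1, Uvrag, Nbr1, Rb1cc1, Atg7, Ambra1, Becn1 and Atg4b followed, all above 28.6 TPM, while Gabarapl1, Atg101, Atg10, Wipi1 and Map1lc3a lay below 5 TPM. Neighbours in this order were called separated where the same gene was higher in all 3 libraries and the mean log2 ratio exceeded its SD. By that rule 11 of 35 neighbouring pairs were separated and 24 were not. Sqstm1 was separated from Atg16l1 by a log2 ratio of 1.62 ± 0.69 (SD, n = 3). Atg16l1 and Uvrag, at 0.07 ± 0.08, were not separated, and neither was any neighbouring pair from Optn down to Pik3r4.

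**Figure D1:**
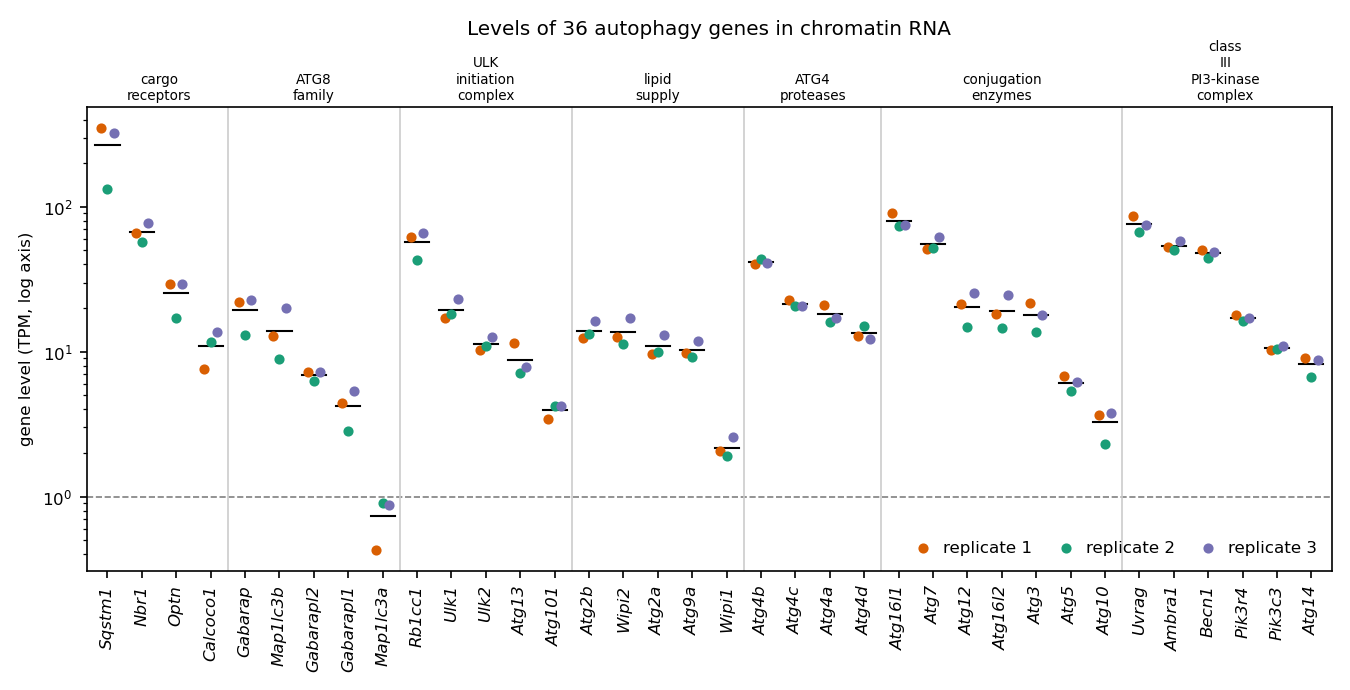
Level of each of the 36 autophagy genes in TPM, on a log axis, grouped by role, with 1 point for each replicate and a line at the mean. The dashed line marks 1 TPM. Sqstm1 stands highest, at 347, 132 and 322 TPM, and Map1lc3a is the gene with all 3 points below the dashed line.

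The cargo receptors were the role with the highest median level, 46.1 TPM over 4 genes. Sqstm1 (chr11:50199366-50210827, minus strand), the receptor for ubiquitin-tagged cargo and itself degraded by autophagy, had 347, 132 and 322 TPM in replicates 1, 2 and 3. Replicates 1 and 3 lay close together and replicate 2 was far below both. Nbr1, which also binds ubiquitin and ATG8 proteins, had 66.3, 57.0 and 77.4 TPM, and Optn, a receptor for mitochondria and bacteria, had 29.3, 17.1 and 29.5 TPM. The order Sqstm1, Nbr1, Optn held in every library, with log2 ratios of 1.88 ± 0.61 for Sqstm1 over Nbr1 and 1.44 ± 0.28 for Nbr1 over Optn (SD, n = 3). Calcoco1, a receptor for parts of the endoplasmic reticulum and Golgi, was the lowest of the role with 7.54, 11.7 and 13.7 TPM. It was lowest in replicate 1, where the other receptors were not at their lowest TPM. On the log2 CPM scale Nbr1 was lowest in replicate 1 too, at 6.49 against 6.88 and 6.85 in replicates 2 and 3.

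The ATG8 family, whose members are the ubiquitin-like proteins that coat the autophagosome membrane, was the role with the lowest median level, 6.90 TPM over 5 genes. Gabarap was the highest by mean, with 21.9, 13.1 and 22.9 TPM. Map1lc3b, which encodes the LC3 protein most used to follow autophagy, had 12.8, 8.86 and 19.9 TPM, below Gabarap in each library (log2 ratio of Gabarap over Map1lc3b 0.51 ± 0.29, SD, n = 3). Both were lowest in replicate 2. Gabarapl2 had 7.19, 6.30 and 7.22 TPM, and Gabarapl1 had 4.42, 2.82 and 5.32 TPM. By gene, Gabarap and Gabarapl1 kept their distance through all libraries, with a log2 ratio of 2.21 ± 0.10. That ratio depended on the transcripts used. It was 1.39 ± 0.35 on protein-coding transcripts alone and 0.05 ± 0.25 on those of the second table, where Gabarap was higher in 2 of 3 libraries. Map1lc3a had 0.430, 0.900 and 0.880 TPM, from 3, 14 and 9 counts. Map1lc3b was 18.8-fold higher than Map1lc3a on average, with a log2 ratio of 4.23 ± 0.83 that rests on those few counts.

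In the ULK initiation complex, Rb1cc1, the scaffold known as FIP200, had the highest level, 61.6, 43.2 and 66.4 TPM. The kinases Ulk1 and Ulk2 had means of 19.5 ± 3.12 and 11.3 ± 1.33 TPM (SD, n = 3), and Ulk1 was higher in every library, by 1.73-fold. Atg13, an adaptor of the kinase, had 8.82 ± 2.27 TPM, and its partner Atg101 was the lowest of the complex with 3.44, 4.22 and 4.19 TPM. Its 3 values did not overlap those of Atg13. Among the genes that supply and place membrane, Atg2b, a lipid transfer protein, was the highest by mean with 12.4, 13.2 and 16.4 TPM. Atg2a (10.9 ± 1.91), the scramblase Atg9a (10.3 ± 1.41) and the lipid-binding Wipi2 (13.7 ± 3.03) lay in the same range. Wipi1, the close relative of Wipi2, was far below it with 2.08, 1.90 and 2.56 TPM, a 6.26-fold difference in which no library overlapped (log2 ratio 2.65 ± 0.09).

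The 4 ATG4 proteases, which cut ATG8 proteins before conjugation and free them afterwards, spanned a narrow range. Atg4b, regarded as the main enzyme for LC3, had 40.0, 43.3 and 40.9 TPM. Atg4c and Atg4a followed with 21.4 ± 1.19 and 18.1 ± 2.65 TPM, and Atg4d was the lowest with 12.9, 15.1 and 12.2 TPM. Atg4b exceeded Atg4c by 1.93-fold, in all 3 libraries.

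The conjugation genes were spread widely. Atg16l1 (chr1:87755870-87792428, plus strand), which sets the site of LC3 conjugation, had 90.8, 74.2 and 74.8 TPM and was 4.27-fold above its relative Atg16l2, whose mean was 19.1 ± 5.11 TPM. Atg7, the E1-like enzyme that activates ATG8 proteins and Atg12, had 55.0 ± 5.76 TPM. Of the E2-like enzymes, Atg3, which hands on ATG8 proteins, had 17.8 ± 4.13 TPM, and Atg10, which hands on Atg12, was the lowest of the role with 3.68, 2.29 and 3.79 TPM. Atg12 itself had 20.4 ± 5.30 and Atg5 6.10 ± 0.760 TPM. Thus Atg16l1 and Atg5, whose proteins act in 1 complex, differed 13.1-fold in RNA on chromatin, and 2.59-fold on their protein-coding transcripts alone.

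Genes of the class III phosphoinositide 3-kinase complex had a median of 32.4 TPM over 6 genes. Uvrag (chr7:98885021-99141141, minus strand), the subunit of the endosomal form of the complex, was the highest with 86.3, 67.1 and 75.3 TPM, and Atg14, the subunit of the autophagy form, was the lowest with 9.09, 6.69 and 8.77 TPM. The ratio of Uvrag to Atg14 was 9.35-fold, with a log2 ratio of 3.22 ± 0.11 (SD, n = 3). Ambra1, a regulator of Becn1, had 53.9 ± 3.92 TPM and Becn1 47.7 ± 3.15 TPM. The catalytic subunit Pik3c3 had 10.6 ± 0.426 TPM and its partner Pik3r4 17.1 ± 0.715 TPM, so the scaffold Becn1 was 4.51-fold above the enzyme.

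These gene levels sum all annotated transcripts, and the order changed when transcripts were separated by class. Retained-intron transcripts held 594 of the 1076 TPM of the list, 55.2%, and protein-coding transcripts 382 TPM. Over the 35 members averaging 1 TPM or more, the median retained-intron share was 39.6% of TPM, against 26.5% over protein-coding genes of the same minimum. The share was over 50% in 16 members, against 28.2% of those genes. A member can have such a share only where the annotation gives it a retained-intron transcript. It did so for 24 of these 35 members and for 62.3% of protein-coding genes of the same minimum. Among genes with such a transcript the medians were 55.8% for members and 46.9% for protein-coding genes, and 45.3% of the latter were over 50%. By role, the median share was 62.3% in the class III kinase complex, 59.7% in conjugation, 47.5% in cargo receptors, 45.3% in the ATG4 proteases, 39.6% in lipid supply, 19.5% in the ATG8 family and 0% in the ULK complex, in which 3 of 5 genes have no annotated transcript of this class. The transcript with the highest TPM was a retained-intron transcript in 14 of the 35 members, against 28.1% of protein-coding genes.

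By expected counts the picture was smaller. The median share of counts on retained-intron transcripts was 12.9% for members and 9.08% for protein-coding genes, and 7 members were over 50% by counts (Atg16l1, Atg3, Atg4b, Becn1, Map1lc3b, Pik3r4 and Uvrag), close to the 18.6% of protein-coding genes. TPM divides by length, and the members' retained-intron transcripts had a median length of 807 bases against 2538 for their 114 protein-coding transcripts. Sqstm1 shows the distance between the scales: 72.8, 73.3 and 72.6% of its TPM lay on retained-intron transcripts in replicates 1, 2 and 3, but only 27.6% of its counts. The share in replicate 2, where the gene's level was low, lay within 1 percentage point of the others. Nbr1, at 60.5 ± 6.43% of TPM and 13.1% of counts, and Ulk1, at 69.1 ± 1.77% and 14.2%, were of the same kind.

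In a second set of members the share was high on both scales. Becn1 had 89.8, 86.2 and 81.5% of its TPM, and 78.1% of its counts, on retained-intron transcripts. Pik3r4 had 84.3 ± 5.56% of TPM and 82.7% of counts, and Atg16l1 80.2 ± 1.49% and 74.7%. Uvrag had 73.1 ± 2.59% and 68.9%, with Uvrag-202, whose boundary is printed above, as its most abundant transcript at 39.0, 34.6 and 34.5 TPM in replicates 1, 2 and 3. The tables cannot tell RNA that has not yet been spliced from a finished transcript that keeps an intron. The class is that of the annotation, and reads from its annotated piece of intron or from exons that it shares with other transcripts may be assigned to it.

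**Figure D2:**
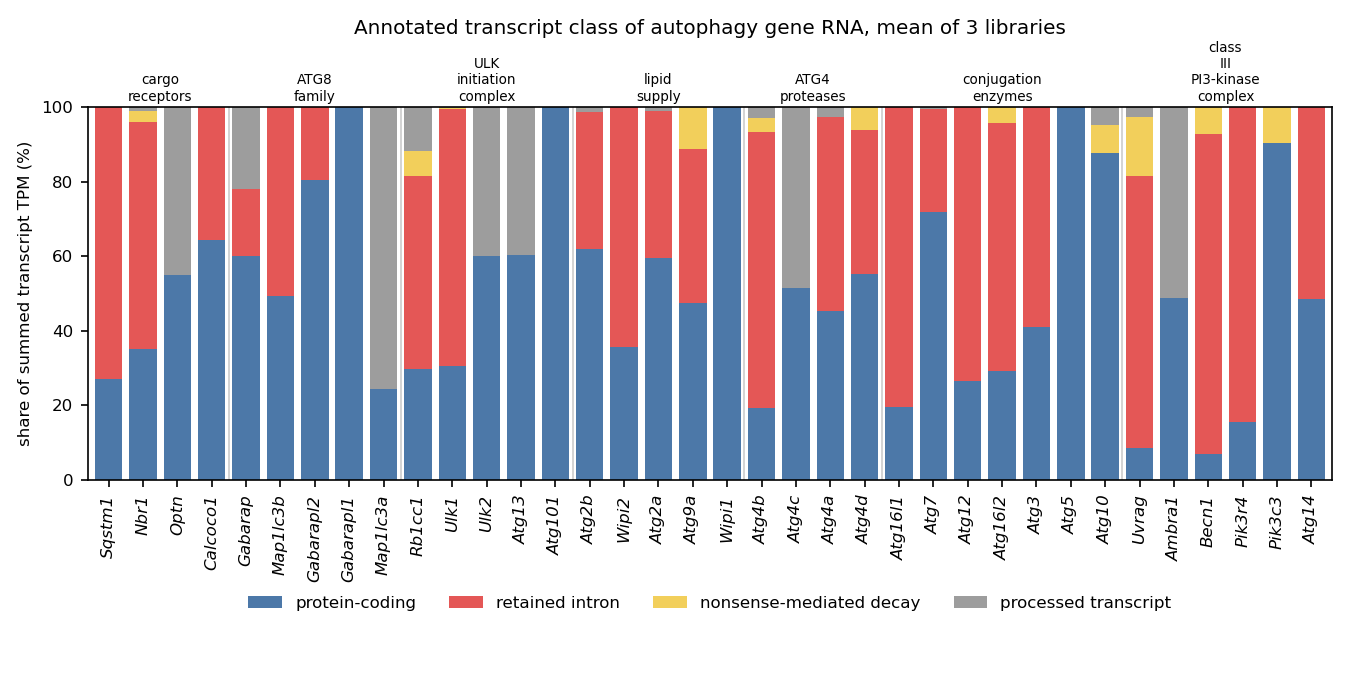
Share of each gene's summed transcript TPM, in percent and as the mean of 3 libraries, on transcripts annotated as protein-coding, retained intron, nonsense-mediated decay or processed transcript, with genes grouped by role. Retained-intron transcripts hold most of the TPM of Becn1 (85.8%), Pik3r4 (84.3%), Atg16l1 (80.2%) and Atg4b (74.3%), and Wipi1, Atg5, Atg101 and Gabarapl1 lie wholly on protein-coding transcripts.

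The remaining 12 members had no annotated retained-intron transcript, Map1lc3a among them. Of these, Map1lc3a, at its low level, had 75.5% of its TPM on transcripts classed as processed, which have no open reading frame given, Ambra1 had 51.2%, Atg4c 48.6%, Optn 44.9%, Ulk2 39.8% and Atg13 39.6%. In the first table Wipi1, Atg5, Atg101 and Gabarapl1 lay wholly on protein-coding transcripts. In the second, Wipi1, Atg101 and Gabarapl1 did so again, but Atg5 had only 6.37 of its 8.98 TPM on them. The level of Map1lc3b combined transcripts of different kinds. The retained-intron transcript Map1lc3b-202 had 7.03 ± 2.44 TPM, the protein-coding transcript Map1lc3b-204, which has 1 exon, had 6.02 ± 3.05, and the protein-coding transcript of 4 exons, Map1lc3b-201, had 0.813 ± 0.186 (SD, n = 3).

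On protein-coding transcripts alone, Sqstm1 was still the highest member with 72.6 ± 32.5 TPM, followed by Atg7 with 39.6 ± 5.32, Ambra1 with 26.3 ± 0.884 and Nbr1 with 23.6 ± 2.38 TPM. Becn1 went from rank 8 of 36 to rank 32, at 3.39 ± 0.105 TPM, Pik3r4 from rank 18 to rank 34, at 2.66 ± 0.878, and Uvrag from rank 3 to rank 19, at 6.62 ± 0.910. In contrast, Pik3c3, with no retained-intron transcript, went from rank 26 to rank 10. Several orders between partners turned with this choice. Becn1 was 4.51-fold above Pik3c3 by gene and 0.355-fold by protein-coding transcripts, and Pik3r4 1.62-fold and 0.267-fold, each with the same direction in all 3 libraries. Atg4b was 1.93-fold above Atg4c by gene and 0.725-fold by protein-coding transcripts. The order of Ulk1 and Ulk2 was lost, with a log2 ratio of -0.21 ± 0.20 on protein-coding transcripts. The order of Sqstm1, Nbr1 and Optn and those of Wipi2 over Wipi1, Atg16l1 over Atg16l2 and Uvrag over Atg14 were the same on both. All of these differences were smaller on protein-coding transcripts. There, Sqstm1 was 2.83-fold above Nbr1, Nbr1 1.71-fold above Optn and Wipi2 2.26-fold above Wipi1. Atg16l1 was 2.84-fold above Atg16l2, and Uvrag exceeded Atg14 by only 1.69-fold.

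**Figure D3:**
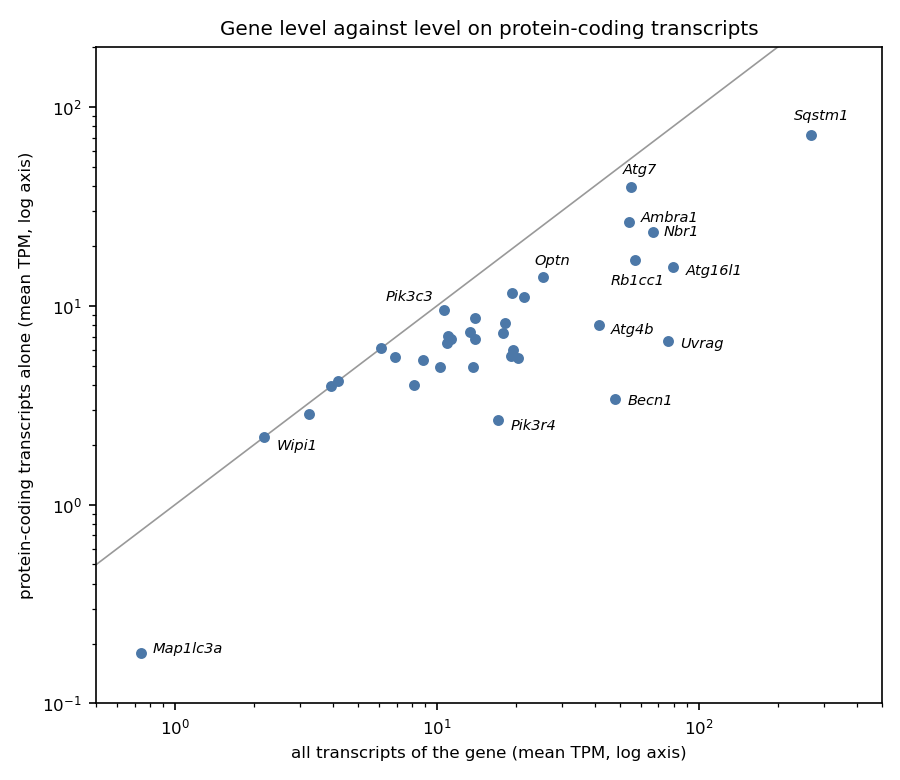
Mean TPM of each member over 3 libraries by gene (x axis) and on protein-coding transcripts alone (y axis), both on log axes, with the line of equal values. Becn1, Pik3r4, Uvrag, Atg16l1 and Atg4b lie far below the line, Wipi1 and Pik3c3 lie on or near it, and Sqstm1 is the highest on both axes.

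The second transcript table, made from the same libraries by another quantification, gave higher values for most members. The ratio of its mean TPM to that of the first table had a median of 1.39 over members and 1.34 over protein-coding genes. It ranged from 0.818 for Atg12 to 3.54 for Atg10, with 3.36 for Atg13, and exceeded 1.5 in 13 members, against 38.7% of protein-coding genes averaging 1 TPM or more. With 11.5 TPM in the second table, Atg10 was not the lowest conjugation gene there, which was Atg5 with 8.98 TPM. The highest conjugation gene there was Atg7 with 123 TPM, before Atg16l1 with 107. Among genes that supply membrane, Atg9a (15.8 TPM) and Atg2b (15.7) were about level at the top. Pik3c3 (12.8 TPM) lay below Atg14 (13.4) as the lowest class III kinase gene, and Atg13 (29.6) lay above Ulk1 (25.8). The other members named as highest or lowest of a role kept their places. Sqstm1 was again the highest gene, at 411 ± 185 TPM (SD, n = 3). The median retained-intron share was 38.5%, and 14 members were over 50%, against 26.9% of protein-coding genes, but single genes moved: Becn1 had 45.6% there against 85.8%, and Uvrag 37.1% against 73.1%. On protein-coding transcripts, Atg7 with 95.1 TPM took the first rank before Sqstm1 with 83.2 TPM. Atg16l1 (82.9%) and Sqstm1 (79.5%) had high shares in both. The turned orders were found in the second table too: on protein-coding transcripts there, Becn1 was 0.497-fold and Pik3r4 0.541-fold of Pik3c3, and Atg4b 0.766-fold of Atg4c, each in all 3 libraries. Uvrag over Atg14 was the exception among the orders kept above, 9.94-fold by gene and 0.650-fold on protein-coding transcripts in that table.

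Between libraries the members varied about as much as other genes. In log2 CPM, with library sizes scaled by TMM, the median SD over 3 libraries was 0.20 for the 34 members averaging 50 or more counts and 0.19 for protein-coding genes of the same minimum. Map1lc3a and Atg101 did not reach it. Sqstm1 had the largest SD, 0.56, from 7.88, 6.87 and 7.80 log2 CPM in replicates 1, 2 and 3, and was the only member above the 90th percentile of protein-coding genes, 0.44. Its highest library was 2.02-fold above its lowest, and with 2774 to 3615 counts the SD expected from counting was 0.03. Replicate 2, made from the least RNA and sequenced deepest, was the low one, and the part of either in this difference was not tested.

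Calcoco1 and Map1lc3b followed, each with an SD of 0.43. Calcoco1 had 3.75, 4.40 and 4.56 log2 CPM and was lowest in replicate 1, and Map1lc3b had 5.12, 4.95 and 5.76 and was highest in replicate 3. Gabarap, at 3.90, 3.35 and 3.89, was low in replicate 2 as Sqstm1 was, and Atg2b, at 5.91, 6.44 and 6.43, was low in replicate 1. The steadiest member was Becn1, with an SD of 0.06.

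In log2 CPM the genes that supply membrane were all lowest in replicate 1 (Atg2a, Atg2b, Atg9a, Wipi1 and Wipi2, 5 of 5), Atg9a by only 4.43 against 4.44 in replicate 2. In TPM only Atg2a and Atg2b were lowest in replicate 1. Atg9a (9.79, 9.23 and 11.9 TPM in replicates 1, 2 and 3), Wipi1 (2.08, 1.90 and 2.56) and Wipi2 (12.7, 11.3 and 17.1) were lowest in replicate 2. Of 4 ATG8 genes that passed the minimum, 3 were lowest in replicate 2 in log2 CPM. Over all members, 17 of 34 were lowest in replicate 1, 12 in replicate 2 and 5 in replicate 3, against 41.2, 33.9 and 24.9% of protein-coding genes. The highest library was replicate 1 for 7, replicate 2 for 14 and replicate 3 for 13, against 32.1, 39.6 and 28.3%.

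**Figure D4:**
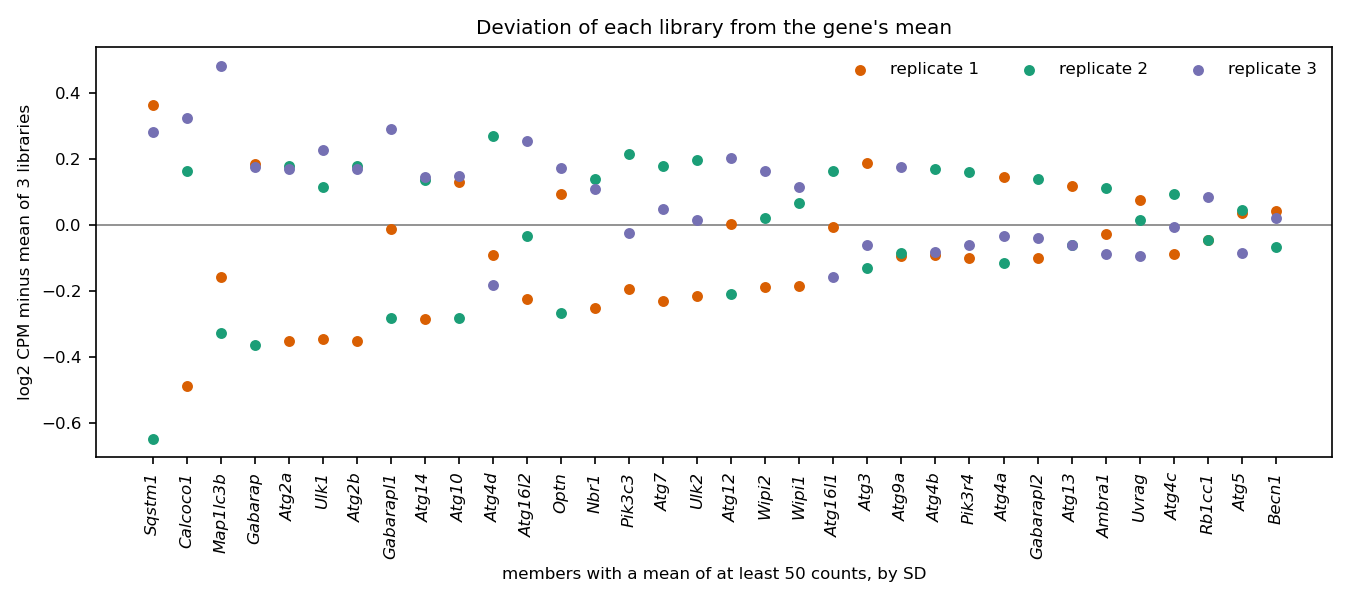
Deviation of each replicate from the gene's mean over 3 libraries, in log2 CPM, for the 34 members averaging 50 or more counts, ordered by SD. Sqstm1 is at the left with replicate 2 far below the others, and Becn1 is at the right with an SD of 0.06.

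Other genes of the pathway were described from 4 further lists. Beside the counts detected in them stands the 45.2% of all protein-coding genes that passed the same rule. Distances are against all protein-coding genes, whose median was 0.677 TPM. For these lists they are not given against genes averaging 1 TPM or more, where that of the members was 0.63 in place of 3.31. Of 15 genes of nutrient signalling, which switches autophagy on and off through mTORC1 and AMPK, 13 were detected, with a median 3.27 above protein-coding genes in log2(TPM + 1). The highest were the mTORC1 subunit Rptor (41.6 ± 5.63 TPM), its inhibitor Tsc2 (36.4 ± 2.80) and the GTPase Rragc (35.4 ± 13.7), and the AMPK subunit Prkaa2 was lowest at 0.0567 TPM. All 14 further cargo receptors were detected, with a median 2.95 above protein-coding genes. Wdfy3, a scaffold for clearing protein aggregates, had 86.5 ± 11.4 TPM, the ferritin receptor Ncoa4 60.4 ± 8.35 and Tax1bp1 54.5 ± 11.0, while Pink1, a sensor of damaged mitochondria, had 2.03 ± 0.561. Each of the first 3 lay below Sqstm1 in every library.

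All 14 genes for fusion of autophagosomes with lysosomes were detected, with the highest median of the 4 lists, 4.18 above protein-coding genes. Here the tethering subunits Vps16 and Vps41 had 63.8 ± 4.01 and 57.9 ± 10.5 TPM, the LC3-binding transport adaptor Fyco1 59.7 ± 1.23, and the SNARE Snap29 6.13 ± 1.61. Of 13 other membrane and kinase partners, 12 were detected, with a median of 3.57. Vmp1, a scramblase of the endoplasmic reticulum needed for autophagosome formation, had 541, 262 and 392 TPM, above Sqstm1 in each library, and Tecpr1 had 231, 122 and 284 TPM. Both were lowest in replicate 2 in TPM, as Sqstm1 was. Sh3glb1 had 34.0 ± 10.3 TPM, and Atg9b, the relative of Atg9a, 0.393 ± 0.157. Among genes of these lists averaging 1 TPM or more, the median retained-intron share was 52.4% in nutrient signalling, where 12 of 14 genes have an annotated transcript of that class, and 38.8% in the membrane and kinase partners, where 9 of 12 do. It was 25.5% in the further cargo receptors (10 of 14) and 8.68% in the fusion genes (8 of 14), against 26.5% over protein-coding genes, and differences between lists were not tested.

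Promoter sequences of RefSeq (GRCm38.p6, 250 bases before to 50 after the start) were found for 30 of the 36 members, 33 promoters in all; Pik3c3, Atg16l1, Rb1cc1, Map1lc3a, Atg12 and Becn1 had no match. The E-box CACGTG, the core of the site of the lysosomal factors TFEB and TFE3, was searched on both strands and was found in 4 of the 33 (Atg14, Atg3, Atg5 and Atg7), against 7.15% of 32851 promoters. Its longer form TCACGTGA, which contains it, was found in 1, that of Atg3, 72 bases before the start, against 0.974%. TGANNNNGC, the core of the site of NRF2, was found in 17, against 41.3%. These are matches of letters and were not set against binding data. The CACGTG matches of Atg7 and Atg14 lay at RefSeq starts inside the GENCODE gene, downstream of its annotated 5′ end. Neither CACGTG nor TGANNNNGC lay in the window of Sqstm1, which says nothing of sites elsewhere.

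Some members share reads with other genes. Expected counts were not whole in at least 1 library, by more than 0.005, for 12 members, Sqstm1, Map1lc3b, Becn1 and Uvrag among them, which occurs where reads are divided between genes. Genes on the opposite strand overlapped 15 members and genes on the same strand 7, and the sources used here do not give whether strand was used in counting. The most abundant overlapping gene, at 2346 TPM, was the higher of the small RNA genes in introns of Atg16l1, Scarna6 and Gm25395. Neither overlaps an exon of an Atg16l1 retained-intron transcript. Other overlapping genes also exceeded the member. On the opposite strand, Fchsd2 had 102 TPM against 19.1 for Atg16l2, and Kri1 had 34.9 against 13.4 for Atg4d. The highest gene overlapping Atg9a (10.3 TPM) had 18.4 TPM. The part of reads from such genes in the members' levels was not tested.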

How the data were processed

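RNA of the chromatin fraction was quantified in 3 libraries of 1 group. The submitters' processing notes name genome mm10 with annotation M21; for the aligner and the counting program no name is given in the sources used here. The gene and first transcript tables, deposited by the authors, hold expected counts (estimated, so that fractions occur), with column names that match RSEM output. The TPM values deposited in them are, per the file headers, scaled for transcript length and library. A second transcript table with estimated counts and TPM has column names that match kallisto output. Of 81881 entries, 55536 were genes, 86 without a symbol in the second table; other entries stayed out of library sizes.

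Levels are deposited TPM with the SD over libraries, lists are compared as medians of log2(TPM + 1), and spread is the SD of log2 CPM of rounded expected counts, scaled by the TMM method of edgeR 4.0.16 (factors 1.03, 0.984 and 0.985), a prior count of 2 and a minimum mean of 50 counts. DESeq2 1.42.0 size factors were an alternative. Transcript classes and exon boundaries came from GENCODE M21. The spread calculation was tested on simulated data. R 4.3.3 and Python 3.11.15 were used.

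Depth was 13953780 to 24222661 expected counts per library, which gives floors of 0.124 to 0.220 CPM at 3 counts. The members and lists were chosen with earlier results of these data known. Any member may be named by its mean. Values per library are given for the ATG8 genes, the cargo receptors, the highest and lowest member of each other role and the 5 members with the largest SD, and the 3 highest and the lowest gene of each further list are named. Further values per library, and the pairs compared, were chosen after their values were seen.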

Additional observations from a re-analysis of the deposited data

How the results depend on the processing

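The number of detected members was 35 with the second table, on protein-coding transcripts alone (an alternative chosen after seeing the data), with TPM rescaled to genes and without each replicate, and 31 at a minimum of 5 TPM. The share of all protein-coding genes is given only for the main rule, 45.2%. These alternative counts therefore have no background beside them and say nothing of members against other genes. The distance of the list above protein-coding genes stayed positive in every setting tried, at 2.47 with the second table, 4.34 in CPM, 4.42 with a pseudocount of 0.1, 0.63 among genes averaging 1 TPM or more and 2.46 on protein-coding transcripts, and 3.31 to 3.37 without single replicates. The median SD ranged from 0.12 to 0.20 without single replicates, against 0.14 to 0.19 for protein-coding genes. Members highest in replicate 1 numbered 3 of 35 with the second table, against 31.9% of protein-coding genes, and 11 of 34 in log2(TPM + 1), where 51.4% of protein-coding genes were highest there, and members lowest in replicate 2 numbered 24 of 34 on that scale, against 70.7%. The median retained-intron share was 12.9% by expected counts and 51.4% at a minimum of 5 TPM, against 9.08 and 34.6% for protein-coding genes. Among genes with such a transcript, an alternative chosen after seeing the data, it was 55.8% against 46.9%. Sqstm1 was at 411 TPM with the second table, 72.6 TPM on protein-coding transcripts and 227 to 334 TPM without single replicates. Levels moved by more than the SD between libraries in 28 of 36 members with the second table and in 31 on protein-coding transcripts. None did without a single replicate, but a mean of 3 libraries cannot move that far by leaving 1 out. That result was therefore fixed in advance and says nothing of how much the levels rest on single libraries. The causes were not tested, beyond what each setting changes by construction. No paired analysis was possible because the study has 1 group. Depth limits Map1lc3a, with 3 to 14 counts per library, and Atg101, with 32 to 65.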
